A study of Mus musculus with 8 samples.

Results

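The 60 genes described here act in the DNA damage response and in DNA repair. They were chosen by symbol alone, as all genes matching a fixed list of symbols and symbol stems (Brca1 and Brca2, several Rad stems, and the Fanc, Xrcc, Ercc, Msh, Mlh, Lig and Rpa families among them) that have a row in both deposited tables, out of 8537 genes with a row in both. Of the symbols in the gene annotation, 76 match the list. Another 6 genes of the list have a row in the input table only and 1 in the HA table only, and the others, Chek2, Rnf8, Atrip, Fanca and Msh5 among them, have a row in neither. The members fall into 7 groups by role: 11 damage sensors, kinases and checkpoint effectors, 17 genes of homologous recombination, 6 of the Fanconi anaemia pathway, 8 of mismatch repair, 8 of nucleotide excision repair and RPA, 5 of end joining, and 5 of base excision and single-strand break repair.

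The data come from mature (MII) oocytes of RiboTagF/F;Zp3-Cre female mice, in which Cre driven by the oocyte promoter of Zp3 places an HA tag on the ribosomal protein Rpl22. Young females were 1 month old, and old females were 12 to 15 months old and were retired breeders. All females received 5 IU PMSG and, after 48 h, 10 IU hCG, and ovulated oocytes were taken 13 h later. Oocytes were pooled to 200 per replicate, and each of the 4 pools, 2 per age, gave an input library from 10% of its lysate (total mRNA) and a library of the HA immunoprecipitate (ribosome-bound mRNA). All groups carry the same tag and Cre, and because oocytes of several females were pooled, the spread between the pools of an age is not a spread between animals.

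DNA damage is detected by protein complexes that bind broken or unwound DNA and activate the kinases ATM and ATR, which signal through checkpoint kinases and mark the chromatin around the lesion. Breaks are then rejoined end to end or repaired by homologous recombination, whereas mismatched, damaged or crosslinked bases are handled by mismatch, excision and Fanconi anaemia repair. A fully grown oocyte is transcriptionally silent, so the repair proteins it makes until the embryo begins transcription come from stored maternal mRNA, and the recruitment of that mRNA to ribosomes sets what is made.

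Between 37817382 and 59688578 reads were counted on genes in the HA libraries and between 38276453 and 60052814 in the input libraries. The deposited values are CPM (reads on a gene relative to library size) adjusted by TMM within each table, and 3 reads, the limit that a count of 0 allows, correspond to at most 0.111 CPM. The reads carry no molecular identifiers, so this limit covers counting error only. All 11 oocyte markers examined had a row in both tables, with summed levels of 9530 to 10843 CPM in input and 11892 to 18247 CPM in HA, and none of 5 blood and immune markers had one. Of 12 cumulus and granulosa markers, 9 were in the input table (35.5 to 196 CPM summed) and 3 in the HA table, with summed levels of 83.8 and 81.7 CPM in the old and 156 and 182 CPM in the young pools. Amh and Foxl2 had no row in either table. The part of these cells in the values below was not tested, and in pooled oocytes fewer cells with a transcript and less of it per cell cannot be told apart.

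In total mRNA the members spanned more than 3 orders of magnitude. Compared per kb of exon and averaged over the 4 input libraries, the level was highest for Chek1, the checkpoint kinase activated by ATR, with 147 CPM per kb. Rad50, the ATPase of the MRE11 complex that holds broken ends, followed with 129 CPM per kb, and Rnf168, a ubiquitin ligase that marks histones near breaks, with 121 CPM per kb. Xrcc5, which encodes Ku80, a subunit of the end-binding Ku heterodimer, had 63.5 CPM per kb, Brca2, a mediator of strand exchange, had 47.3, and Msh6, a mismatch-recognition subunit, had 43.1. At the other end stood Mlh3, a gene of meiotic crossing over, with 0.124 CPM per kb.

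The 60 members together took 0.571% and 0.591% of all input CPM in the old pools and 0.637% and 0.61% in the young pools. In HA they took 0.788% and 0.714% in old against 0.735% and 0.763% in young pools, so the ranges of the ages overlapped. Between 41.2% and 50.3% of the members' CPM in a library came from its 5 most abundant members. In CPM the HA sums of the members were higher in old pools, with 8793 and 9976 CPM against 5666 and 6342 CPM, but the CPM of all genes in the table also summed to more in old pools, since TMM scaled the old HA libraries by 0.896 and 0.715 and the young ones by 1.3 and 1.2.

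**Figure D1:**
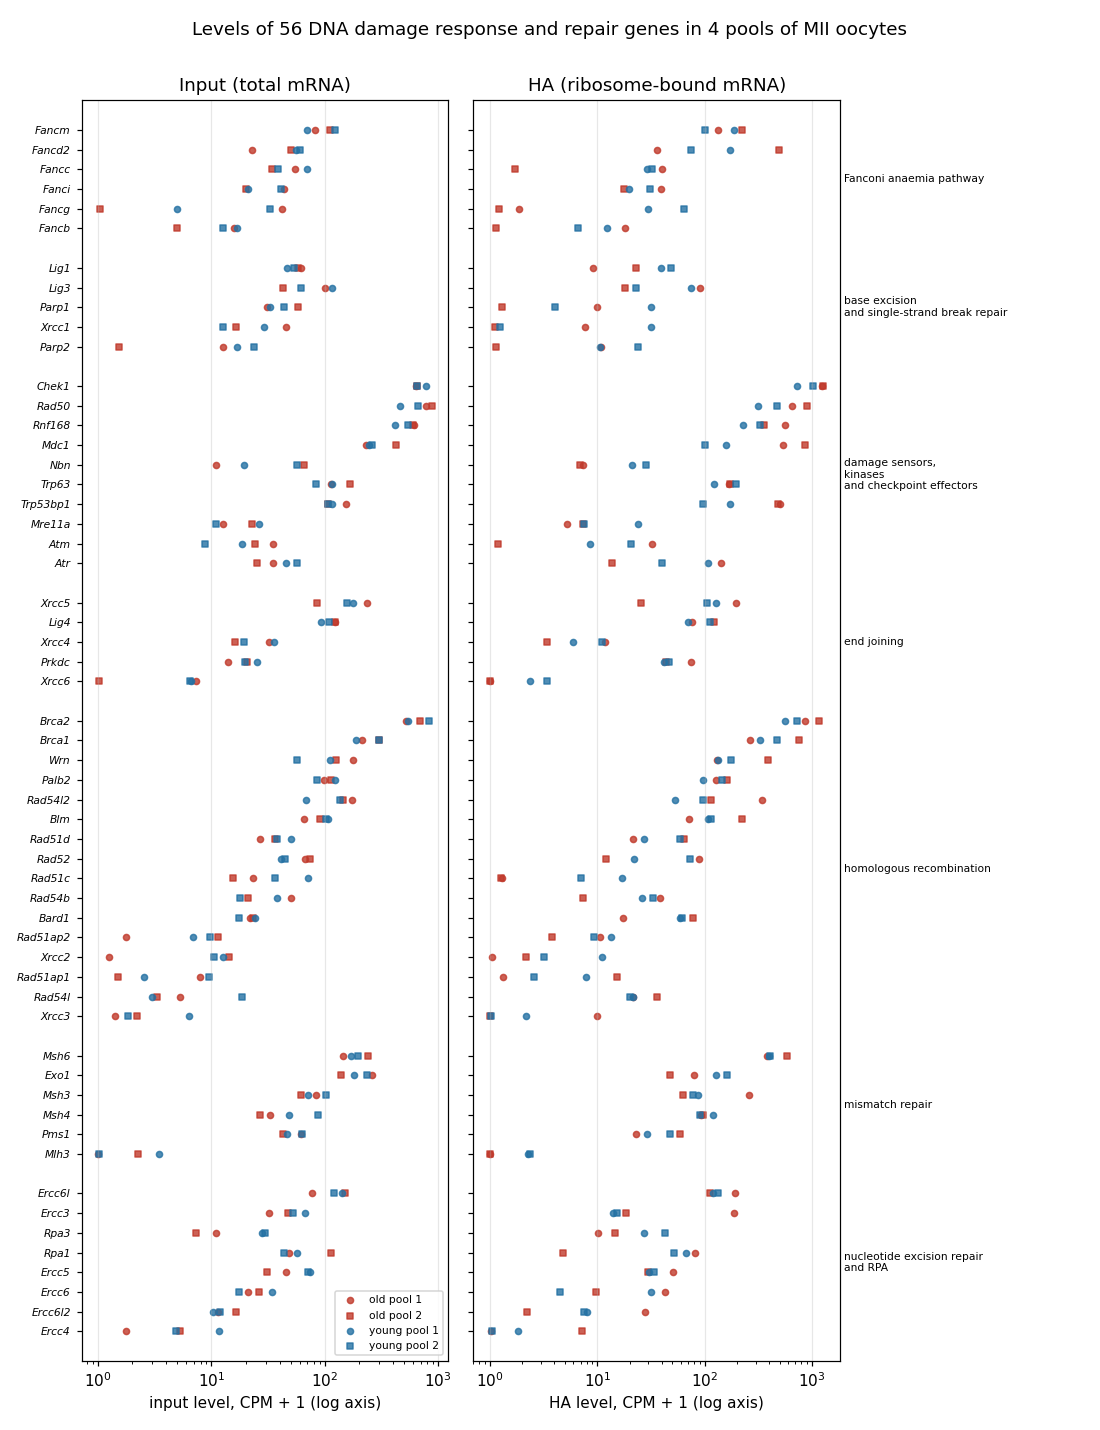
Level of 56 of the 60 members in the input library (left) and the HA library (right) of each pool, as CPM + 1 on a log axis, with genes grouped by role and ordered within a group by input level per kb. Red marks old and blue young pools, circles pool 1 and squares pool 2. The abundant genes Chek1, Rad50, Rnf168 and Brca2 lie at the right in both fractions, and the old HA pools often lie far apart from each other.

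How close the pools of one age lay differed between the fractions. The median absolute log2 difference between the 2 pools of an age over the 60 members, on log2(CPM + 1), was 0.585 for old input, 0.461 for young input, 0.617 for young HA and 1.42 for old HA. In old HA, 23 members differed by more than 2 on this scale between the pools, against 3 in young HA. Over all genes of the HA table the corresponding medians were 1.29 in old and 0.769 in young pools, so wide spacing of the old HA pools was not particular to the members. Fancd2, the ubiquitinated effector of the Fanconi anaemia pathway, had 35.4 and 497 CPM in old against 172 and 73.9 CPM in young pools in HA. Rpa1, the large subunit of the single-strand binding complex RPA, had 80.4 and 3.81 CPM in old against 66.4 and 50.7 CPM in young pools in HA. Each of these genes had old pools on either side of both young pools.

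Total mRNA of the members was compared between ages first. With limma on log2(CPM + 1) and Benjamini-Hochberg adjustment over all 10530 genes, none of the 60 members passed an adjusted p of 0.05 (0.0095% of all genes did), and the smallest adjusted p of a member was 0.778. At an unadjusted p under 0.05, 1 member was lower in old oocytes (3.48% of all genes) and 0 were higher (2.71%), and 6.18% of all genes passed in either direction. At the unadjusted threshold edgeR's likelihood ratio test called 2 members (7.28% of all genes) and DESeq2 5 (9.21% of all genes). Neither called any member after adjustment, where they called 0.475% and 1.04% of all genes. The median difference of the members was -0.15, beside -0.03 over all genes, with 26 members above 0 and 34 below. With libraries scaled to the same sum, 17 were above 0, and the median of all genes moved to -0.19. Both old pools lay above both young pools for 8 members (16.4% of all genes) and below for 12 (18.9% of all genes), leaving 40 members whose ages overlapped. The count of 1 at the unadjusted threshold depended on single libraries, since it was 10 without old pool 1 (11.1% of all genes), 4 without old pool 2 (9.34%), 2 without young pool 1 (2.88%) and 3 without young pool 2 (4.01%). The share of all genes past the threshold moved with the library left out as well.

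Ribosome-bound mRNA was compared next, and the members past the unadjusted threshold there went in both directions. None of the 60 members had an adjusted p under 0.05 in limma (0% of all 8898 genes did), and the smallest adjusted p was 0.297. At an unadjusted p under 0.05, 3 members were higher in old oocytes, Mdc1 and Trp53bp1 among them, beside 4.28% of all genes. Another 4 were lower, namely Fancg, Rad51c, Xrcc6 and Mlh3, beside 10.5% of all genes. These 4 have an HA row through the young pools alone and could only be lower. The 7 members past this threshold are 7 of 60, and 14.7% of all genes passed it, so that the members were not more often past it than genes at large. Both old pools lay above both young pools for 10 members (17.2% of all genes) and below for another 10 (24.7% of all genes).

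The outcome depended on the test and on single libraries. On the reads recovered from the CPM, edgeR's likelihood ratio test, the kind of test the study used, called 4 members with an adjusted p under 0.05 (3.32% of all genes): Mdc1 as higher, and Fancg, Xrcc6 and Mlh3 as lower, each with an adjusted p of 0.0462. DESeq2 called Fancg (adjusted p = 3.89e-05), Rad51c (0.0321) and Mdc1 (0.044), with 5.59% of all genes called, and gave no adjusted p for Xrcc6 and Mlh3. Of the members named in these calls, Fancg, Rad51c, Xrcc6 and Mlh3 have an HA row through the young pools alone. They could only come out lower, so their direction is no result of these tests. edgeR's quasi-likelihood test called 0 members, the smallest adjusted p being 0.294. In limma without old pool 1, 17 members had an unadjusted p under 0.05 (26.1% of all genes) and 4 passed after adjustment (Mdc1, Fancg and Rpa1 among them, with 4.42% of all genes passing). Without old pool 2, 14 had an unadjusted p under 0.05 (19.7% of all genes). Without young pool 2, 2 members passed after adjustment, Xrcc6 and Mlh3, with 7.13% of all genes passing.

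The median HA difference of the members was 0.01, beside -0.14 over all genes, with 31 members above 0 and 29 below. The sign of the member median turned on single libraries: it was -0.23 without old pool 1, 0.21 without old pool 2, 0.02 without young pool 1 and -0.08 without young pool 2. The counts above and below 0 also depended on the scaling. With libraries scaled to the same sum, 11 members were above 0 and the median of all genes was -0.68, whereas with the median ratio scaling 35 were above 0 and with quantile normalization 19. Over the deposited and these 3 scalings, 11 members were above 0 in all 4, 24 were below 0 in all 4, and 25 changed sign.

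**Figure D2:**
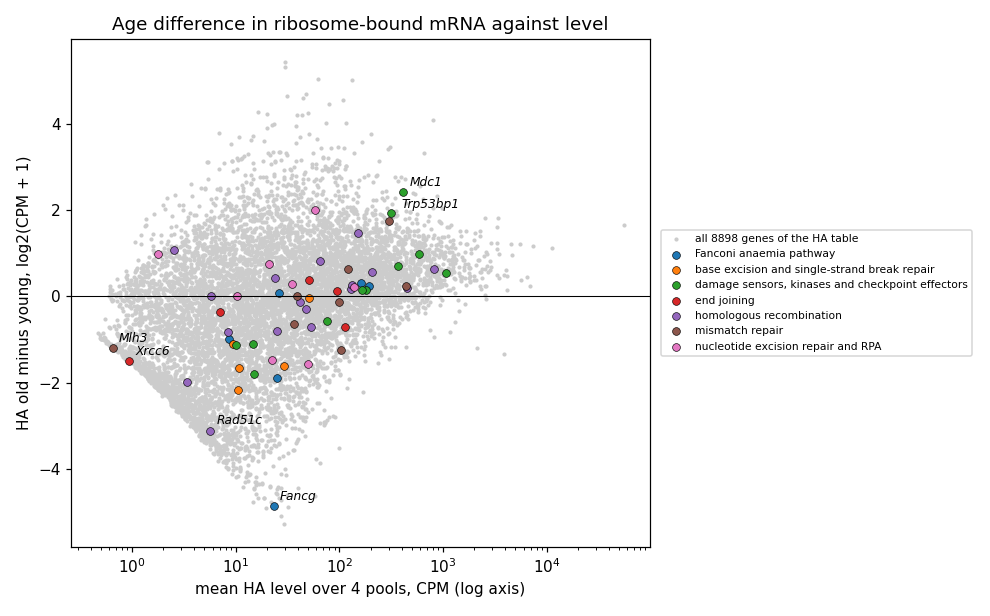
HA difference, old minus young on log2(CPM + 1), against the mean HA level over the 4 pools in CPM (log axis). Grey points are all 8898 genes of the HA table and coloured points the 60 members by role, with 6 of the members at an unadjusted p under 0.05 named. Members named above 0 have mean levels above 100 CPM, and those named below 0 have lower levels.

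The difference went with the level of the transcript, in the members as in all genes. Of the 21 members with a mean of 100 CPM or more in HA, 19 were above 0, with a median of 0.31, beside 0.53 for all genes at that level. Of the 28 members between 10 and 100 CPM, 9 were above 0 and the median was -0.43, beside -0.14 for all genes. The 11 members under 10 CPM had a median of -0.99, beside -0.98 for all genes. In input, all 9 members under 10 CPM were below 0, with a median of -0.96, beside -0.26 for all genes. A gene that passed the low-level filter only in young pools had to be lower in old pools, and this was so for Fancg, Xrcc6, Rad51c and Mlh3 in HA.

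**Figure D3:**
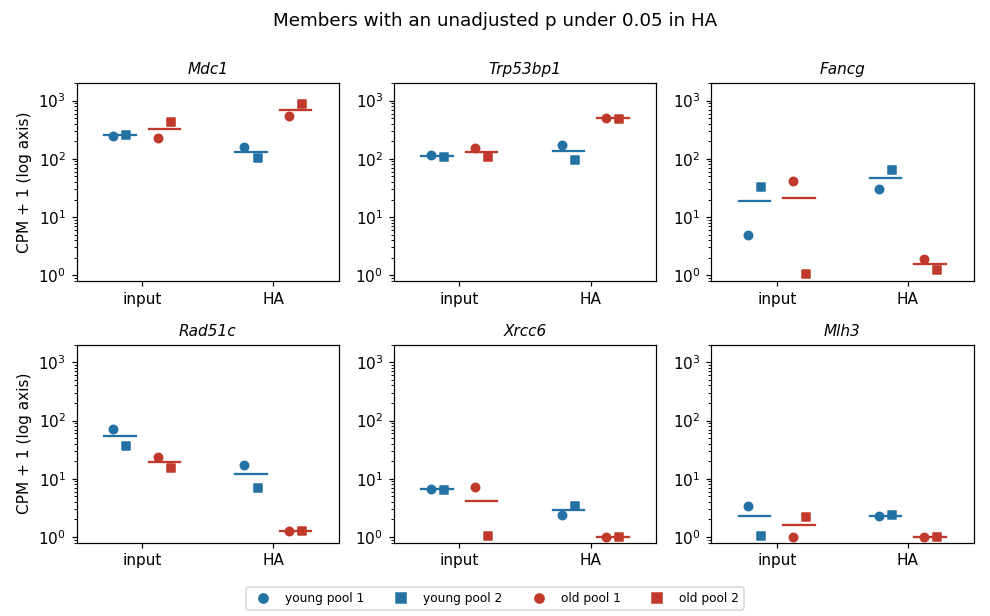
Levels in each pool of 6 members with an unadjusted p under 0.05 in HA, as CPM + 1 on a log axis, with young pools in blue, old pools in red and horizontal bars at the mean of each pair. For Mdc1 and Trp53bp1 the input points of the ages overlap while both old HA points lie above both young ones, and for Fancg, Rad51c, Xrcc6 and Mlh3 both old HA points lie at or near 1, which is a level of 0 CPM.

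Cytoplasmic polyadenylation elements (CPE) are U-rich motifs in the 3'-UTR through which CPEB1, the protein the study is about, controls the translation of maternal mRNA. The letters TTTTAT and TTTTAAT, which can share bases where they lie next to each other, were searched on the sense strand, taking for every gene the longest 3'-UTR that GENCODE M21 annotates. At least 1 was present in 33 of 60 members (55%) and in 70.6% of 7940 genes of both tables with a 3'-UTR, whose median UTR lengths were 1460.5 and 1538 bases. Of the members past the unadjusted threshold in HA, Mdc1 has 1 motif in 2040 bases, Trp53bp1 has 8 in 3582, Rad51c has 3 in 2741 and Mlh3 has 1 in 1458, whereas Fancg and Xrcc6 have none. The sites printed here are the last motif (capitals) before the end of each UTR with its flanking bases, 5' to 3' on the gene's strand in GRCm38, shown because they are the sequences in these members to which the question of the study applies.
Mdc1, chr17:35859148-35859173, + strand, 3'-UTR: gcacttgatgTTTTATctttttggtt
Trp53bp1, chr2:121195626-121195651, - strand, 3'-UTR: gcttttatctTTTTATctcgtcattt
Rad51c, chr11:87378662-87378687, - strand, 3'-UTR: tttaatgtgtTTTTATtttgagtaat
Mlh3, chr12:85234712-85234738, - strand, 3'-UTR: aaaagaatttTTTTAATtctcttggta
The motif was present in Mdc1 and Trp53bp1, which were higher in old HA, and in Rad51c and Mlh3, which were lower in it. No conclusion on direction can be drawn, since 70.6% of all genes with a 3'-UTR hold the motif. Rad51c and Mlh3 could also only be lower, as their HA row comes through the young pools alone. The motif start lies 513 bases from the UTR end in Mdc1, 804 in Trp53bp1, 2033 in Rad51c and 209 in Mlh3. The 33 members with a motif had a median HA difference of 0.12 and the 27 without one of -0.29, beside -0.05 and -0.39 over all genes. The UTRs with a motif were longer, with a median of 2040 bases in members against 608 without one. These are matches of letters, and no binding was measured.

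Of the 11 damage sensors, kinases and checkpoint effectors, 2 had an unadjusted p under 0.05 in HA, both higher, and 7 were above 0, a count that was 4 with same-sum or quantile scaling. Mdc1 (17:35841515 to 35859670 in GRCm38), the adaptor that binds phosphorylated histone H2AX and holds other factors at breaks, had 536 and 862 CPM in old against 157 and 101 CPM in young pools. Both old pools were more than 3 times as high as the higher young pool, and the difference was 2.43 ± 0.49 (SE) (limma adjusted p = 0.297). Its input level was 228 and 427 CPM in old against 242 and 259 CPM in young pools, with overlapping ages. Over the 15 alternatives the HA difference of Mdc1 lay between 1.79 and 2.77 and its unadjusted p was under 0.05 in all 15.

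Trp53bp1 (2:121193281 to 121271407), which encodes 53BP1, a chromatin reader that protects broken ends from resection, had 502 and 482 CPM in old against 170.0 and 95.5 CPM in young pools. The old pools did not overlap with the young ones and differed from each other by little, and the difference was 1.94 ± 0.49 (SE) (limma adjusted p = 0.297). In input it had 152 and 107 CPM in old against 114 and 107 CPM in young pools, again with overlapping ages. Trp53bp1 overlaps Tubgcp4 in the annotation, and since reads were counted without strand their reads cannot be told apart where the genes overlap.

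Chek1 and Rad50 were abundant in both fractions. Chek1 had 1234 and 1282 CPM in old against 734 and 1027 CPM in young pools in the HA fraction and 641 and 650.1 CPM in old against 788 and 653 CPM in young pools in input. The old pools were thus higher in HA and lower in input, with differences of 0.53 ± 0.36 (SE) and -0.15 ± 0.23 (SE) that did not pass the unadjusted threshold, the first of which changed sign with the scaling. Rad50 had 653 and 909 CPM in old against 315 and 473 CPM in young pools in HA and 775 and 877 CPM in old against 458 and 662 CPM in young pools in input, so both old pools lay above both young pools in each fraction, with differences of 0.99 ± 0.43 (SE) and 0.58 ± 0.26 (SE) that did not pass the unadjusted threshold. Rnf168 stood apart between ages in the same way in both fractions. Atm and Atr, the apical kinases, had old HA pools on either side of both young pools. Nbn, another subunit of the MRE11 complex, had 6.3 and 5.91 CPM in old against 20 and 27.8 CPM in young pools in HA, lower in both old pools. Mre11a, the nuclease of the complex, had 4.23 and 6.43 CPM in old against 23.1 and 6.58 CPM in young pools in HA and was also lower in both old pools, while Rad50 was higher in both.

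In mismatch repair, 1 gene had an unadjusted p under 0.05 upward and 1 downward in HA, and 3 of 8 were above 0 (between 1 and 5 over the scalings). Msh6 had 382 and 586 CPM in old against 398 and 403 CPM in young pools in HA and 144 and 242 CPM in old against 168 and 195 CPM in young pools in input. Msh3, another mismatch-recognition subunit, had 256 and 61.9 CPM in old against 86.2 and 77 CPM in young pools in HA. The ages overlapped for both of these genes.

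Mlh3 (12:85234520 to 85270599), a subunit of the endonuclease that resolves meiotic crossovers, had 0 reads in both old HA libraries, which allows up to 3 reads in each, and 98 and 76 reads (1.27 and 1.34 CPM) in the young ones. Against a floor of 3 reads per library this is at least 14.3-fold lower in old HA, at a level near the bottom of the table in either age. In input Mlh3 had 0 and 1.24 CPM in old against 2.47 and 0.0263 CPM in young pools. Exo1, the exonuclease of mismatch repair and end resection, had 78.7 and 46.5 CPM in old against 127 and 163 CPM in young pools in HA, where both old pools were lower, and 259 and 138 CPM in old against 179 and 237 CPM in young pools in input, where ages overlapped. Its HA difference of -1.24 ± 0.63 (SE) did not pass the unadjusted threshold (limma adjusted p = 0.447). Mlh3 overlaps Mir6938 and Gm46369 in the annotation.

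Of the 17 homologous recombination genes, 1 had an unadjusted p under 0.05 in HA, and it was lower. The count above 0 was 10 and lay between 3 and 11 over the scalings. Rad51c (11:87376645 to 87404954), which supports strand exchange, had 0.285 and 0.259 CPM in old against 16.2 and 5.99 CPM in young pools, which are 12 and 7 reads against 1254 and 340 reads. The difference was -3.11 ± 1.07 (SE) (limma adjusted p = 0.299). In input both old pools were also below both young pools, at 22.3 and 14.5 CPM in old against 70.1 and 35.5 CPM in young pools, with a difference of -1.42 ± 0.64 (SE) (limma adjusted p = 0.778). Of the genes related to it, Rad51d had 20.6 and 62.9 CPM in old against 26.5 and 58.3 CPM in young pools in HA, with overlapping ages. Xrcc2 had 0.0475 and 1.18 CPM in old against 10.2 and 2.19 CPM in young pools in HA, both old pools being lower.

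Abundant members of the same pathway did not follow Rad51c. Brca2 had 863 and 1157 CPM in old against 562 and 732 CPM in young pools in HA, with both old pools higher, and 523 and 695 CPM in old against 536 and 829 CPM in young pools in input, where ages overlapped. Its HA difference of 0.64 ± 0.38 (SE) did not pass the unadjusted threshold (limma adjusted p = 0.543) and changed sign with the scaling, the lowest value being -0.06 with quantile normalization. Brca1, the ubiquitin ligase subunit that acts before BRCA2, had 264 and 759 CPM in old against 326 and 469 CPM in young pools in HA and 212 and 299 CPM in old against 188 and 302 CPM in young pools in input. Rad54l2 had 346 and 114 CPM in old against 52.6 and 94.9 CPM in young pools in HA, with old pool 1 far above the other libraries.

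Of the 6 Fanconi anaemia genes, 1 had an unadjusted p under 0.05 in HA, again lower, and 3 were above 0 (between 0 and 3 over the scalings). Fancg (4:43002343 to 43010506), a subunit of the core complex that ubiquitinates FANCD2, had 0.879 and 0.222 CPM in old against 28.8 and 63.8 CPM in young pools, which are 37 and 6 reads against 2225 and 3617 reads. The difference was -4.86 ± 1.47 (SE) on log2(CPM + 1) (limma adjusted p = 0.297). In input the pools of each age lay far apart, at 40.8 and 0.0401 CPM in old against 3.98 and 32 CPM in young pools, so old pool 1 held more Fancg in total mRNA than either young pool but little in HA. Fancm, the helicase that brings the core complex to DNA, had 131 and 224 CPM in old against 189 and 101 CPM in young pools in HA and 81.1 and 110.3 CPM in old against 68.4 and 123 CPM in young pools in input, and the ages overlapped in both. Fancd2 had 22 and 49.5 CPM in old against 54.8 and 60 CPM in young pools in input, both old pools being lower.

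Among the 5 end joining genes, Xrcc6, which encodes Ku70, was the member past the unadjusted threshold in HA. Xrcc6 (15:81987835 to 82040085) had 0 reads in both old HA libraries and 105 and 137 reads (1.36 and 2.42 CPM) in the young ones, at least 20.7-fold lower in old HA against a floor of 3 reads per library. In input it had 6.27 and 0.0201 CPM in old against 5.63 and 5.52 CPM in young pools, so that old pool 1, with 0 reads in HA, had an input level like those of the young pools. Xrcc6 overlaps Desi1 in the annotation. Its partner Xrcc5 was far more abundant, with 194 and 24.7 CPM in old against 127 and 105 CPM in young pools in HA and 235 and 84.9 CPM in old against 175 and 155 CPM in young pools in input, and old pool 2 was the lowest library in both. Lig4, the ligase of end joining, had 75.2 and 123 CPM in old against 69.1 and 113 CPM in young pools in HA and 122 and 122 CPM in old against 90.8 and 108 CPM in young pools in input, where both old pools were higher. The counts above 0 in HA were 2 of 5 and lay between 0 and 2 over the scalings.

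None of the 5 base excision and single-strand break repair genes and none of the 8 nucleotide excision repair and RPA genes had an unadjusted p under 0.05 in HA in limma. All 5 of the first group were below 0, or 4 of 5 with the median ratio scaling. Lig1, the replicative ligase, had 8.05 and 21.8 CPM in old against 38.4 and 47.8 CPM in young pools in HA, both old pools being lower, but 60.1 and 57.3 CPM in old against 45.2 and 52.3 CPM in young pools in input, both old pools being higher. Lig3, the ligase that acts with XRCC1, had 89.7 and 17.1 CPM in old against 74.1 and 21.8 CPM in young pools in HA and 100.1 and 41.5 CPM in old against 115 and 60.3 CPM in young pools in input, with overlapping ages. Of the second group 6 of 8 were above 0, and between 3 and 6 over the scalings. Ercc3, a helicase subunit of TFIIH, had 189 and 17.6 CPM in old against 13.2 and 14.3 CPM in young pools in HA, where old pool 1 stood far above the other libraries (difference 2.01 ± 1.34 (SE)), and 31 and 46.1 CPM in old against 66.3 and 51 CPM in young pools in input, where both old pools were lower. Ercc6l is counted in this group, although it is a helicase that resolves DNA bridges in anaphase. It had 192 and 111 CPM in old against 118 and 132 CPM in young pools in HA. In input it had 76.6 and 149 CPM in old against 141 and 119.8 CPM in young pools.

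**Figure D4:**
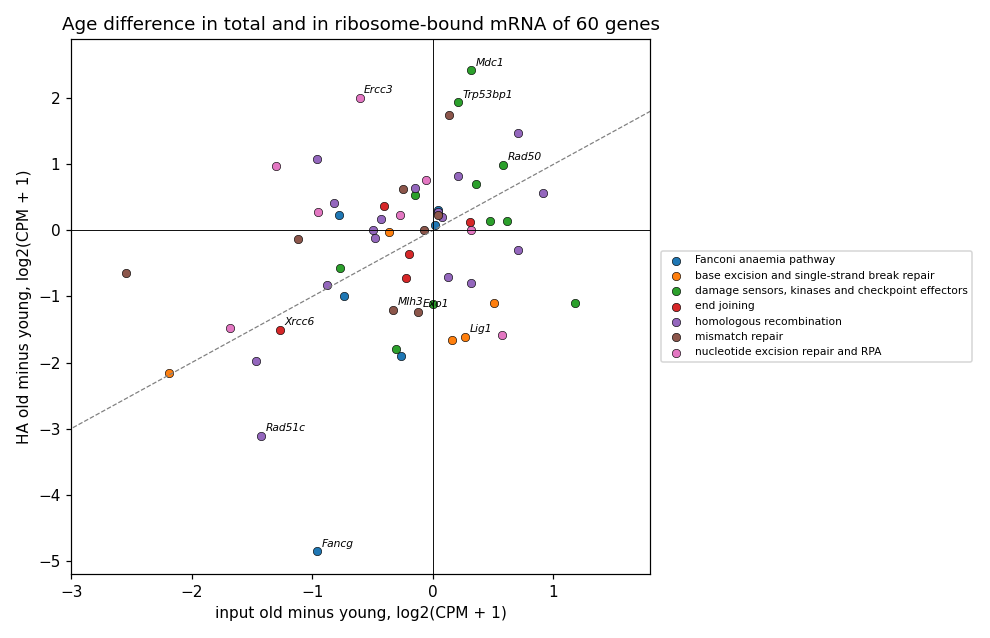
Old minus young difference on log2(CPM + 1) in HA (vertical) against that in input (horizontal) for the 60 members, coloured by role, with the dashed line at equal differences. Mdc1 and Trp53bp1 lie near 0 on the input axis and at 2.43 and 1.94 on the HA axis, while Rad51c lies below 0 on both.

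Translation efficiency (TE) was computed within each pool as the ratio of HA CPM to input CPM. The tables were scaled separately, so a TE is relative and 1 has no fixed meaning. The median TE of the 60 members was 1.11 and 0.84 in old and 0.915 and 0.857 in young pools, beside 0.687 and 0.572 in old and 0.729 and 0.724 in young pools over all 8537 genes. The members' median was thus above that of all genes in each of the 4 pools, and the old pools lay on either side of the young or near them.

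In the comparison of log2 TE between ages, none of the 60 members passed an adjusted p of 0.05 in limma (0% of all genes did), and the smallest adjusted p was 0.724. At an unadjusted p under 0.05, 1 member was higher and 0 were lower, beside 2.33% and 4.23% of all genes, or 6.56% in either direction. The median difference was 0.16, beside -0.10 over all genes, with 35 members above 0. With same-sum scaling 21 were above 0, and the median of all genes moved to -0.48. Both old pools were above both young pools in 12 members (17.2% of all genes) and below in 5 (20.4% of all genes).

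The member past the threshold was Mdc1, whose TE was 2.35 and 2.02 in old against 0.646 and 0.389 in young pools, with a difference of 2.11 ± 0.76 (SE) (limma adjusted p = 0.724). Mdc1 was therefore above the median TE of all genes in old pools and below it in young pools. For Trp53bp1 the TE was 3.31 and 4.51 in old against 1.49 and 0.896 in young pools, and its difference of 1.74 ± 0.72 (SE) did not pass the unadjusted threshold. Each of these genes had both old pools above both young pools. With limma on the 8 libraries and an interaction of age and fraction, both had an unadjusted p under 0.05. That fit has no term for the pool, so it treats the HA and input libraries of a pool as independent. With 1 pool left out, the TE difference of Mdc1 was 2.00 without old pool 1, 2.22 without old pool 2, 2.47 without young pool 1 and 1.75 without young pool 2, and of these fits only that without old pool 2 put it past the unadjusted threshold. The count of members past it was 7 without old pool 1 (20.6% of all genes), 5 without old pool 2 (16.6%), 0 without young pool 1 (2.19%) and 0 without young pool 2 (1.29%).

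Genes of the same pathways beyond the members were taken from 5 lists (other homologous recombination and crosslink repair, other excision repair, other checkpoint and chromatin response, translesion synthesis and meiotic recombination). At the unadjusted threshold of limma, 2 of 95 such genes were higher in old oocytes and 5 lower in input, beside 2.71% and 3.48% of all genes. In HA, 3 of 86 were higher and 8 lower, beside 4.28% and 10.5% of all genes. In TE, 1 of 84 was higher and 2 lower, beside 2.33% and 4.23%. None passed after adjustment. The HA genes with the smallest p upward in their lists were Smc6, Ddb1 and Brip1. Smc6, a subunit of the SMC5/6 complex, had 656 and 896 CPM in old against 282 and 253 CPM in young pools. Ddb1, the adaptor of the ultraviolet damage sensor, had 2239 and 2523 CPM in old against 1227 and 844 CPM in young pools, and for Brip1, the BRCA1-associated helicase, the values were 435 and 628 CPM in old against 223 and 229.8 CPM in young pools. These abundant transcripts were picked by their p, so the lack of overlap between the ages follows from the choice. Both old pools lay above both young pools for 17.2% of all genes in HA. The median difference of all genes at 100 CPM or more in HA was 0.53. In the translesion synthesis and meiotic recombination lists no gene was higher in HA at the unadjusted threshold.

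Downward in HA, Xpa, the damage verifier of nucleotide excision repair, had 0.0238 and 0.0739 CPM in old against 7.51 and 19.6 CPM in young pools. Poll, a gap-filling polymerase of end joining, had 0.0238 and 0.037 CPM in old against 7.77 and 5.24 CPM in young pools. Both transcripts were near 0 in both old pools, and since they are in the HA table through the young pools alone, they had to be lower in old pools. In input, Rad18, the ligase that ubiquitinates PCNA at stalled forks, had 70.5 and 115 CPM in old against 174 and 292 CPM in young pools. Polb, the polymerase of base excision repair, had 0.882 and 2.25 CPM in old against 10.8 and 12.1 CPM in young pools. Clspn, which links ATR to CHEK1, had 202 and 319.9 CPM in old against 144 and 138 CPM in young pools. Rad18 and Polb were lower and Clspn higher in both old pools. The TE of Polb was 9.21 and 22.1 in old against 0.519 and 0.131 in young pools, with a difference of 4.71 (limma adjusted p = 0.724).

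Of the genes on the symbol list with a row in the input table only, Fance, a subunit of the Fanconi anaemia core complex, had 0 reads in both old input libraries and 258 and 45 reads in the young ones. Since Fance has its row through the young pools alone, it had to be lower in old pools. Pms2, an endonuclease subunit of mismatch repair, had 76 and 1 input reads in old against 174 and 166 in young pools. Rpa2, the middle subunit of RPA, had 8.78 and 1.18 CPM in old against 8.8 and 5.65 CPM in young pools, with overlapping ages. Rad51b, with a row in the HA table only, had 394 and 1 HA reads in old against 351 and 27 in young pools. All of these had low levels in each library.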

How the data were processed

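RNA-Seq values of 8 libraries (HA and input of 4 pools) were analysed. The deposited signal values are CPM which the authors obtained with FastQC, Trimmomatic 0.36, HISAT2 (GRCm38), SAMtools, HTSeq counts per gene (whole gene, no strand) and TMM in edgeR, separately for HA and input. No per-sample column was left out. A minimum of 10 CPM in at least 2 libraries is stated in the study's methods, whereas the second-highest value of a gene was as low as 0.788 CPM (HA) and 0.885 CPM (input). Every value was a whole multiple of 1 read within 0.001 (100% of values per library), so the reads were recovered.

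Ages were compared in limma (lmFit, eBayes with trend) on log2(CPM + 1) with two-sided tests, and p-values were adjusted over the whole table (Benjamini-Hochberg). This scale understates changes of low genes. With 2 pools against 2, an exact permutation test cannot give a p below 0.333. The study calls the pools of an age biologically independent, and p-values measure the spread between these pools. TE was HA over input within a pool, paired because the input is part of the same lysate. The members, role groups and wider lists were chosen with earlier results of these data known.

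Values per library were given for members with an unadjusted p under 0.05 in any comparison, for the 2 members per role group with the highest input level per kb, and for members at no more than 3 reads in both pools of one age and above it in the other. Others that the text names were chosen after their values were seen. A few members and 1 wider list are not reported here, although the counts over the 60 members include those members. Alternatives were other pseudocounts (0.1 and 5 CPM), a 10 CPM filter, other scalings, robust eBayes, a replicate block, each pool left out, and edgeR and DESeq2 on the recovered reads. Old and young pools of the same number did not deviate together (r = 0.027 in input and 0.079 in HA, across genes), so they were not paired. Gene identifiers of GENCODE M21 matched 99.8% (input) and 99.7% (HA) of rows. In simulated HA data, 200 of 8898 genes, drawn from those with a mean of at least 10 CPM, were given a log2 difference of 4. Of these, 84 were recovered in limma, with 2 false calls. Genes at lower levels, Rad51c, Xrcc6 and Mlh3 among them, were not drawn. Fits were run in R 4.3.3 (DESeq2 1.42.0, edgeR 4.0.16, limma 3.58.1) and summaries in Python 3.11.15 with matplotlib 3.10.9, pandas 2.3.3 and numpy 2.4.6.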

Additional observations from a re-analysis of the deposited data

How the results depend on the processing

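The number of members with an adjusted p under 0.05 stayed at 0 in input and TE under every alternative run. In HA it was 4 with edgeR's likelihood ratio test (3.32% of all genes) and 3 with DESeq2 (5.59%), and it depended on the pool left out. The unadjusted count in input, 1 (6.18% of all genes), became 4 with same-sum scaling (6.8%), 2 with robust eBayes (5.66%) and 3 with the replicate block (6.44%). With the likelihood ratio test it was 2 (7.28%) and with DESeq2 5 (9.21%), and it changed with each pool left out. The HA count of 7 became 4 with quantile normalization and 5 to 17 with a pool left out. The TE count of 1 (6.56% of all genes) became 2 with a pseudocount of 0.1 (8.16%) and 3 with a pseudocount of 5 (5.87%). With the 10 CPM filter it was 2 (7.02% of genes tested) and with the median ratio scaling 2 (6.51%). Same-sum scaling (7.51%), quantile normalization (5.4%) and the replicate block (6.14%) each gave 0. The limma interaction, which has no pool term, gave 3 and the edgeR interaction 4, with shares of all genes not given here. The TE count also changed with each pool left out. The member median moved to -0.029 in input with the 10 CPM filter, to -0.34 in input, -0.52 in HA and -0.25 in TE with same-sum scaling, and to -0.30 in HA with quantile normalization. The cause was not tested. With the replicate block the HA members called after adjustment stayed at 0. The 9 differences of single members followed through all alternatives (8 genes, Mdc1 in HA and TE) kept their sign in each. The depth limits statements on members at 3 reads or fewer, 4 in each old HA library.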
